A study of Mus musculus with 4 samples.

Results

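Basophils were studied in single-cell libraries of immune cells that had been sorted from MC38 tumours, grown from a mouse colon carcinoma line. They were picked out by transcript content, as barcodes with 200 or more genes, at most 10% mitochondrial UMIs (unique molecular identifiers, 1 per captured transcript), fewer than 3 UMIs of the B cell gene Cd79a, and at least 1 UMI of 2 or more of 6 genes: Cyp11a1, Fcer1a, Cd200r3, Gata2, Ms4a2 and Cpa3. The rule found 45 basophils among 874 barcodes that passed the gene and mitochondrial filters in the knockout (KO) library, which is 5.15% (95% Clopper-Pearson interval 3.78 to 6.83), and 33 among 805 in the control library, which is 4.10% (2.84 to 5.71). Together they were 78 of 1713 deposited barcodes. KO recipients were C57BL/6 females of 12 to 16 weeks with the genotype Prdm1 f/f CD19cre, in which cre is active in the B cell lineage. Control recipients were Prdm1 f/f females of the same strain and age, so both groups carried the floxed Prdm1 alleles and neither was unfloxed. Tumours of 11 recipients per group were pooled on day 18 after subcutaneous inoculation, cells from the B220+ and the CD138+ gate were mixed in unstated proportions, and 1 library of 5' expression and 1 of V(D)J transcripts was made per group. There was therefore no replicate and no test of any difference. Intervals cover counting error only. The date stamps of the libraries differ between the genotypes, so that batch and genotype cannot be told apart. Shares of cell types depend on how the gates were mixed.

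Basophils are rare granulocytes that carry the high-affinity IgE receptor and store histamine and proteases in granules. On crosslinking of IgE, or in answer to IL-3 or IL-33, they release histamine and lipid mediators and secrete IL-4, IL-13 and IL-6, and they are known from allergy, helminth infection and, more recently, tumour tissue. Mast cells share the receptor, histamine and carboxypeptidase with them, but live in tissue, depend on the receptor Kit and store chymases and tryptases that basophils largely lack.

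The 6 genes of the rule were nearly absent elsewhere, and a gap lay between basophils and the rest. Of KO basophils, 1 had UMIs of 3 of the 6 genes, 10 of 4 genes, 20 of 5 genes and 14 of all 6. Of control basophils, 2 had UMIs of 3 genes, 7 of 4, 8 of 5 and 16 of all 6. No barcode of either library had exactly 2, and just outside the rule stood a single KO barcode with 1 Cpa3 UMI among 13014 UMIs. Summed over the 6 genes, a KO basophil had 7, 17 and 53 UMIs (lowest, median and highest) and a control basophil 5, 18 and 51, against 1 such UMI in the 829 other KO barcodes and 0 in the 772 other control barcodes. These values chose the cells and are given as a description.

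Among the rule genes, Cyp11a1, the mitochondrial enzyme that cleaves the side chain of cholesterol in the first step of steroid synthesis, had 1, 5 and 13 UMIs per KO basophil (lowest, median and highest) and 0, 5 and 12 UMIs per control basophil. It had the most UMIs of the 6, with 1772 CPM in KO basophils and 1526 CPM in control basophils, where CPM is UMIs per 1000000 UMIs of the summed cells. Fcer1a, the IgE-binding alpha chain of the high-affinity receptor, had 0, 3 and 16 UMIs per KO basophil (lowest, median and highest) and 0, 3 and 20 UMIs per control basophil. Ms4a2, the receptor's beta chain, stood at 542 CPM in KO basophils and 521 CPM in control basophils, and Cpa3, a carboxypeptidase of secretory granules, at 993 CPM in KO basophils and 960.3 CPM in control basophils. Cd200r3, a receptor of the CD200 receptor family, reached 1115 CPM in KO basophils and 924 CPM in control basophils. Gata2, a transcription factor of basophil and mast cell precursors, reached 978 CPM in KO basophils and 1077 CPM in control basophils. No rule gene differed by 2-fold between the genotypes, and the per-cell ranges overlapped for all 6.

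The rule asked for these genes, so their detection in the same barcodes was built in. Their promoters are shown as a description, from 250 bases before to 50 bases after the start in RefSeq's annotation of GRCm38.p6. Each was searched on both strands for AGATAA (reverse complement TTATCT), a core recognised by GATA factors. A match was found in 4 of the 8 promoters of the 6 rule genes, while 11.2% of 32851 mouse promoters of the same length held one. The sequences below read 5′ to 3′ on the strand of the gene, with matches in capitals. They are Ms4a2 at chr19:11623670-11623969 (minus strand, 3 matches that begin 224, 37 and 11 bases before the start), Fcer1a at chr1:173227180-173227479 (minus strand, 92 bases before), Cpa3 at chr3:20242132-20242431 (minus strand, 46 bases before), Cd200r3 at chr16:44943428-44943727 (plus strand, 39 bases before) and, as a basophil gene outside the rule, Mcpt8 at chr14:56085148-56085447 (minus strand, no match). Of the other basophil genes searched, Prss34 had 1 match, 31 bases before the start, and Hdc, Il4 and Csrp3 had none.
Ms4a2: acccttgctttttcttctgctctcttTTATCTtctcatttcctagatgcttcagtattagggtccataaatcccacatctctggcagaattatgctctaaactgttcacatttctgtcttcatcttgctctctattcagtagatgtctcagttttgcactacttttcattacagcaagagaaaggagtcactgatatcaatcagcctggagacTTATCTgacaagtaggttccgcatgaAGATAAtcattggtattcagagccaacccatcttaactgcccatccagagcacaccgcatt
Fcer1a: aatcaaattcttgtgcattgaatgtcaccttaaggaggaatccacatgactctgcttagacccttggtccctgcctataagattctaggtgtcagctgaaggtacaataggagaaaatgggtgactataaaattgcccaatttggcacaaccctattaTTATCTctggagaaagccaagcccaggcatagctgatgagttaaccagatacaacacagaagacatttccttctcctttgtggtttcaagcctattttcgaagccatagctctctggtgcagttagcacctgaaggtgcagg
Cpa3: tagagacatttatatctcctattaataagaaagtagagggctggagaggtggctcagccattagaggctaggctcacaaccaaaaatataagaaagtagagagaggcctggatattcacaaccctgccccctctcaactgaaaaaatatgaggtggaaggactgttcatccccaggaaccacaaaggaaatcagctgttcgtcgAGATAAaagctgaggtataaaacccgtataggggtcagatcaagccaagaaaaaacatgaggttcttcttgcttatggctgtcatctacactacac
Cd200r3: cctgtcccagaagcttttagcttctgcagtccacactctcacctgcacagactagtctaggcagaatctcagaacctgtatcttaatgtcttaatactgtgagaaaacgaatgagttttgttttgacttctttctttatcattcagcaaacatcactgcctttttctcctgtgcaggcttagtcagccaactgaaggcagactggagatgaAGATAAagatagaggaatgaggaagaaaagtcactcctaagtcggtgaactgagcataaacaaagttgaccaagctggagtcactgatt
Mcpt8: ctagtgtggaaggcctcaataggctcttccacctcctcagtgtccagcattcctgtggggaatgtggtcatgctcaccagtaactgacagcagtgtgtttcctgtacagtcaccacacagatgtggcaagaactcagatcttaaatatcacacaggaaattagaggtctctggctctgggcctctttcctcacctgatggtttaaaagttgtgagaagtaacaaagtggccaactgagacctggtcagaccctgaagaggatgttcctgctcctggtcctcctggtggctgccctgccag
The windows of Cyp11a1 and Gata2 had no match at either of their annotated starts. A match is a string of letters and was not tested as a binding site. The share of rule-gene promoters with a match was not tested against that of all promoters.

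Basophils were shallower than the rest of their libraries. KO basophils had 2992 UMIs per barcode (median, range 771 to 5274), against 4369 in the other KO barcodes, and control basophils had 3295 (1091 to 5570), against 6256.5 in the other control barcodes. Summed, they held 130918 UMIs in the KO and 111429 in the control library, which is 2.40% and 1.60% of each. Prdm1, the floxed gene, which encodes the plasma cell factor Blimp-1, had 0 UMIs in basophils of both libraries, against 55 UMIs in the other KO and 87 UMIs in the other control barcodes, so basophils give no check of the deletion, and whether 5' reads reach the deleted exons is not given in the sources used here. The genes of the sort gate were also scarce: Ptprc, whose B cell isoform is B220, had 20 UMIs in 15 KO basophils and 19 UMIs in 15 control basophils, while Sdc1 (CD138) had 0 in both. No basophil carried a V(D)J contig, against 302 of the other KO and 139 of the other control barcodes. Of the cell barcodes, 3 occurred in both libraries, 1 of them being a control basophil whose barcode in the KO library was no basophil.

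A basophil protease was detected and the listed mast cell chymases and tryptases were not, though no mast cell barcodes were set beside them. Mcpt8, the granule protease of mouse basophils that the selection did not use, was present in 25 of 45 KO basophils and 21 of 33 control basophils. It had 0, 1 and 9 UMIs per KO basophil (lowest, median and highest) and 0, 1 and 13 UMIs per control basophil, and stood at 581 CPM in KO basophils and 619 CPM in control basophils. The other barcodes had 1.70 CPM in the KO and 1.31 CPM in the control library. Kit, Mcpt4, Cma1, Tpsb2 and Tpsab1, which encode the mast cell's growth factor receptor, 2 chymases and 2 tryptases, had 0 UMIs in all 78 basophils, which allows up to 22.9 CPM in KO basophils and 26.9 CPM in control basophils (3 UMIs of each total). Of 20 listed mast cell genes, 18 had no UMI in any basophil, among them Mcpt1, Mcpt2, Mrgprb2 and Tph1. The remaining pair were Slc18a2, the vesicular amine transporter that loads histamine into granules, with 20 UMIs in 16 KO basophils and 27 UMIs in 17 control basophils, and Adora3, an adenosine receptor, with 0 UMIs in KO basophils and 3 UMIs in control basophils. The label basophil was kept on these markers.

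After each barcode was thinned to 1000 UMIs, which left out 1 KO basophil, a Mcpt8 UMI was found in 29.5% of KO basophils (95% Clopper-Pearson interval 16.8 to 45.2) and in 45.5% of control basophils (28.1 to 63.6), and in 0 of 295 KO and 0 of 282 control B cell barcodes (3 or more Cd79a UMIs), a class that should lack it. A thinning is 1 random draw, and the share expected over all draws was 36.0% in KO basophils and 36.5% in control basophils, a calculation added after the data had been seen. Unthinned, the shares were 55.6% in KO basophils and 63.6% in control basophils, against 0.334% of 299 KO B cell barcodes and 0 of 282 control B cell barcodes. Median depths were 2992 UMIs in KO basophils and 3295 in control basophils, and 2777 and 3302.5 UMIs in KO and control B cell barcodes. Mcpt8 transcripts were therefore above the background of B cell barcodes in both libraries at like depth, and the KO over control ratio was 0.937 (0.668 to 1.32), an interval that includes 1. The plot of UMIs per basophil shows the rule genes, these proteases and the mast cell genes cell by cell.

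**Figure D1:**
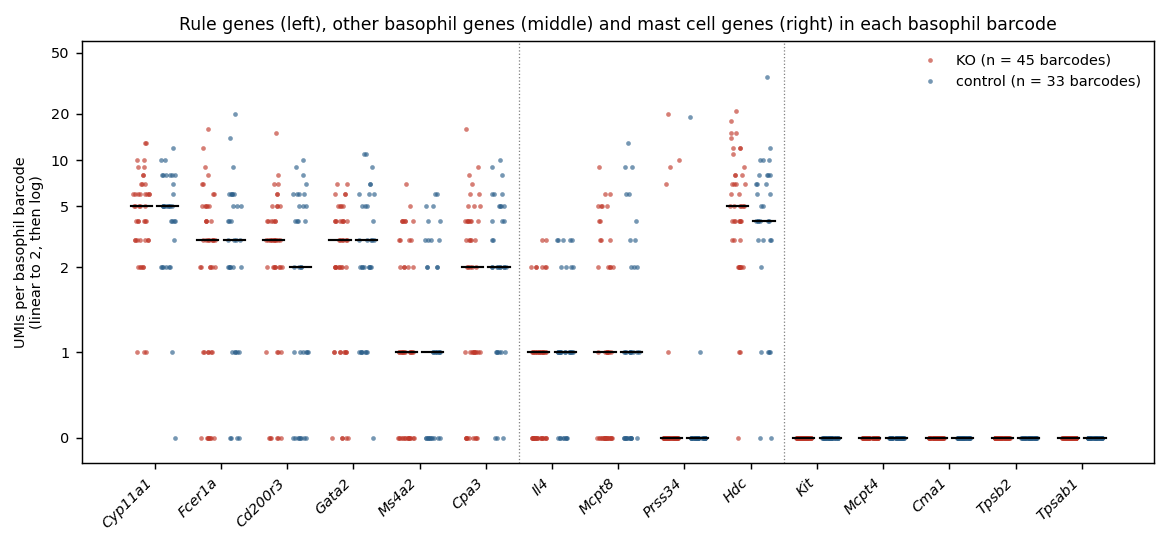
UMIs per basophil barcode (vertical axis, linear to 2 and logarithmic above) of the rule genes, of Il4, Mcpt8, Prss34 and Hdc, and of 5 mast cell genes, with 45 KO basophils in red left of 33 control basophils in blue and black bars at the medians. The mast cell genes lie at 0 in every basophil, Mcpt8 reaches 9 UMIs in KO and 13 UMIs in control basophils, and Prss34 is above 0 in only 5 KO and 2 control basophils.

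Prss34, a second serine protease of mouse basophils, was held by few cells. It had 47 UMIs in 5 KO basophils and 20 UMIs in 2 control basophils, and 1 barcode gave 42.6% of the KO and 95% of the control UMIs, so its KO over control ratio of 2.00 (1.16 to 3.56) rests on these barcodes. All 7 Prss34 barcodes also had Mcpt8 and Fcer1a UMIs. In the 5 KO basophils with Prss34, Mcpt8 stood at 1251 CPM and Fcer1a at 2502 CPM, against 471 and 959.7 CPM in the 40 KO basophils without it. In the 2 control basophils with Prss34, Mcpt8 and Fcer1a both stood at 2020.0 CPM, against 490.1 and 1078 CPM in the 31 without it. Ccl4 ran the other way, at 8485 CPM in KO basophils with Prss34 and 17950.3 CPM in those without, and at 11907 and 15055 CPM in control basophils. So did Csf1, at 326 and 1120 CPM in KO basophils and 744 and 1117 CPM in control basophils. The receptor's beta chain Ms4a2 was lower with Prss34 in KO basophils (272 against 586 CPM) and higher in control basophils (851 against 490 CPM). The median depths were 3769 UMIs with and 2894 UMIs without Prss34 in KO basophils, and 4703 and 3267 in control basophils. This split was chosen after the values had been seen, and the part of depth in it was not tested.

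Il4, the cytokine that directs type 2 immunity, was carried by these cells almost alone. It had 35 UMIs in 25 KO basophils and 39 UMIs in 25 control basophils, with 0, 1 and 3 UMIs per KO basophil (lowest, median and highest) and 0, 1 and 3 UMIs per control basophil. The level was 267 CPM in KO basophils (exact Poisson interval 186 to 372) and 350.0 CPM in control basophils (249 to 478), a KO over control ratio of 0.764 (0.470 to 1.24), whose interval includes 1. Basophils held all 35 Il4 UMIs of the KO library and 88.6% of those of the control library, where the other barcodes had 5 UMIs. Unthinned, 55.6% of KO basophils (40.0 to 70.4) and 75.8% of control basophils (57.7 to 88.9) had an Il4 UMI, and none of the 299 KO and 282 control B cell barcodes did, which allows up to 1.0% and 1.1%. Thinned to 1000 UMIs, the shares were 18.2% of KO basophils (8.19 to 32.7) and 36.4% of control basophils (20.4 to 54.9), and over all draws 24.9% and 30.3%.

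The other cytokines of activated basophils were uneven. Il13, a second type 2 cytokine, had 1 UMI in 1 KO basophil and 3 UMIs in 3 control basophils, all in cells that also had Il4. Il6 had 28 UMIs in 19 KO basophils and 27 UMIs in 17 control basophils, with 214 CPM in KO basophils and 242 CPM in control basophils. All remaining barcodes had 1.13 CPM in the KO and 0.584 CPM in the control library. Il4 and Il6 were found together in 10 KO and 14 control basophils, and Il4 and Mcpt8 in 14 KO and 14 control basophils. Il5, Il9, Il10, Csf2 and Areg had no UMI in any basophil.

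Among secreted factors, CC chemokines had the most UMIs. Ccl6, Ccl4 and Ccl3, the last a ligand of Ccr1, reached 19104, 16621 and 12450.5 CPM in KO basophils and 13596, 14789.7 and 12214 CPM in control basophils. Ccl3 had 2, 34 and 76 UMIs per KO basophil (lowest, median and highest) and 0, 46 and 89 UMIs per control basophil, and Ccl4 had 0, 40 and 150 UMIs per KO basophil (lowest, median and highest) and 0, 41 and 124 UMIs per control basophil. Basophils held 79.8% of the Ccl3, 69.0% of the Ccl4 and 88.4% of the Ccl6 UMIs of the KO library, and 75.2%, 55.4% and 53.4% of those of the control library. Ccl9, a further ligand of Ccr1, stood at 2116 CPM in KO basophils and 1678 CPM in control basophils. Among macrophage barcodes, with 2 or more UMIs of at least 2 C1q genes, Ccl6 reached 1149 CPM in the KO and 576 CPM in the control library, below the basophil level in both.

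Growth factor transcripts were next. Osm, a cytokine of the IL-6 family, stood at 2199.8 CPM in KO basophils and 2710.2 CPM in control basophils. Barcodes outside the population had 15.6 CPM in the KO and 20.1 CPM in the control library. Csf1, the macrophage growth factor, stood at 1008 CPM in KO basophils and 1086 CPM in control basophils, and basophils held 85.2% of its UMIs in the KO and 57.9% in the control library. Hgf, the ligand of the receptor Met, had 66 UMIs in 28 KO basophils and 44 UMIs in 24 control basophils, against 0 UMIs in the other KO barcodes and 11 in the other control barcodes. Vegfa, a vascular growth factor, had 0 UMIs in basophils of both libraries, against 203 CPM in KO and 291 CPM in control macrophage barcodes. Over all genes measured (30 or more UMIs in a library), 13.2% were higher and 19.6% lower in KO basophils than in the other KO barcodes, with a median log2 ratio of -0.52, and 16.0% higher and 15.1% lower in control basophils, with a median of -0.41. Of these genes, 1701 of 9318 in the KO and 2162 of 9714 in the control library had no UMI in basophils and were too scarce elsewhere for a direction. They could not be called lower but count in the shares, so the lower shares are lowest values, here and wherever they stand beside a list. Scaled to the median ratio of the genes measured, 1552 genes passed 2-fold higher and 1458 lower in KO basophils, against 1226 and 1822 on total UMIs. Among genes with 10 or more expected UMIs, a filter chosen after the data had been seen, 9.52% were higher and 34.3% lower in KO basophils, and 9.43% and 36.7% in control basophils. Over the list of cytokines and chemokines, 9 of 19 measured genes passed 2-fold higher and 3 passed 2-fold lower in KO basophils, with a median log2 ratio of 0.93, and 10 and 4 of 19 in control basophils, with a median of 1.39. A gene could pass the filter of 30 UMIs through the cells where it was high, so counts over lists describe the genes that passed and nothing more.

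**Figure D2:**
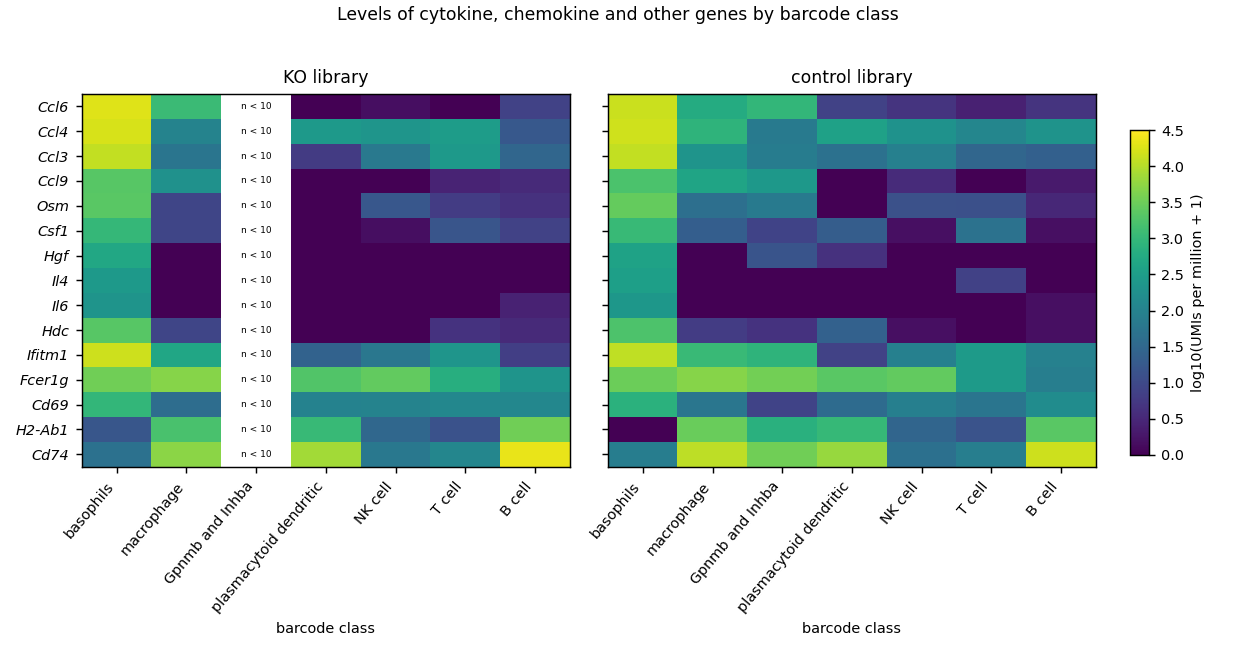
Level of 15 genes (rows, log10 of UMIs per 1000000 plus 1, as colour) in basophils and 6 other barcode classes (columns), with the KO library on the left and the control library on the right. A class with fewer than 10 barcodes is left blank. The chemokine rows are brightest in the basophil column of both libraries, Fcer1g is bright in several classes, and the MHC class II genes H2-Ab1 and Cd74 are dim in basophils and bright in B cell barcodes.

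Of the IgE receptor's signalling genes, Fcer1g, the gamma chain that Fc receptors of many cells share, was at 3338 CPM in KO basophils and 3033 CPM in control basophils, against 1968 CPM in the other KO barcodes and 1949 CPM in the other control barcodes, less than 2-fold above the rest. Lat2, an adaptor of the receptor, was at 1069 CPM in KO basophils and 772 CPM in control basophils. The kinases Lyn and Syk, which start the signal, had 12 and 5 UMIs in KO basophils and 9 and 5 UMIs in control basophils, too few for a level. Over the list, 8 of 19 measured genes passed 2-fold higher and 0 lower in KO basophils (median log2 ratio 0.75). In control basophils, 8 of 20 passed higher and 3 lower (0.59). Of inhibitory receptors, Lilrb4a was at 1887 CPM in KO basophils and 1400.0 CPM in control basophils, Cd300a at 176 CPM in KO basophils and 179 CPM in control basophils, and Cd200r1 at 153 CPM in KO basophils and 188 CPM in control basophils. Reads of Lilrb4a can be split with its near-identical neighbour Lilrb4b. Over the list of inhibitory and checkpoint receptors, without Cd200r3, which chose the cells, 4 of 15 measured genes passed 2-fold higher and 2 lower in KO basophils (median log2 ratio 0.74). In control basophils, 3 of 15 passed higher and 2 lower (0.33). The shares over all genes measured were 13.2% higher and 19.6% lower in KO basophils, and 16.0% and 15.1% in control basophils. The control counts of inhibitory and checkpoint receptors were near these shares.

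Receptors for cytokines that grow and arm basophils were present. Csf2rb, the beta chain shared by the receptors of IL-3, IL-5 and GM-CSF, was at 1054 CPM in KO basophils and 1104 CPM in control basophils. The other KO barcodes had 37.5 CPM and the other control barcodes 55.7 CPM. Csf2rb2, a near copy whose reads can be split with it, was at 565 CPM in KO basophils and 601 CPM in control basophils. Plasmacytoid dendritic barcodes had Csf2rb2 at 443 CPM in the KO and 523 CPM in the control library, and Csf2rb at 249 and 280 CPM. Il3ra, the alpha chain for IL-3, was at 183 CPM in KO basophils and 135 CPM in control basophils, while Csf2ra, the alpha chain for GM-CSF, had 0 UMIs in KO and 2 UMIs in control basophils. Il18r1 and Il18rap, both chains of the IL-18 receptor, stood at 321 and 168 CPM in KO basophils and 188 and 242 CPM in control basophils. Il1rl1, the IL-33 receptor ST2, had 12 UMIs in 11 KO basophils and 11 UMIs in 7 control basophils, against 1 UMI in the other barcodes of each library. The complement receptors C5ar1 and C3ar1 stood at 458 and 306 CPM in KO basophils and 350.0 and 404 CPM in control basophils. Il2rg, the common gamma chain, was the member that passed 2-fold between genotypes, with 328 CPM in KO basophils and 144 CPM in control basophils and a ratio of 2.29 (1.26 to 4.35), while the ratio in the other barcodes was 1.37. Over this list, 12 of 23 measured genes passed 2-fold higher and 5 lower in KO basophils (median log2 ratio 1.08). In control basophils, 11 of 24 passed higher and 7 lower (0.77). For comparison, 13.2% of all measured genes were higher and 19.6% lower in KO basophils, and 16.0% and 15.1% in control basophils.

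Of 16 listed enzymes of the amine and lipid mediators, 9 had a UMI in a basophil. Hdc, which makes histamine from histidine, was found in 44 of 45 KO and 31 of 33 control basophils, with 0, 5 and 21 UMIs per KO basophil (lowest, median and highest) and 0, 4 and 35 UMIs per control basophil, and it stood at 2185 CPM in KO basophils and 1741 CPM in control basophils. The other barcodes had 6.41 CPM in the KO and 4.52 CPM in the control library. Alox5ap and Alox5, which start leukotriene synthesis, stood at 4369 and 313 CPM in KO basophils and 3787 and 242 CPM in control basophils. Ltc4s, which makes the cysteinyl leukotriene, had 0 UMIs in basophils of both libraries, as had the prostaglandin synthases Hpgds and Ptgds. Alox15, a lipoxygenase, had 9 UMIs in 7 KO basophils and 14 UMIs in 9 control basophils and no UMI elsewhere. Over the list, 5 of 6 measured genes passed 2-fold higher and 1 lower in KO basophils (median log2 ratio 4.47). In control basophils, 5 of 6 passed higher and 1 lower (3.22). Among all genes measured, 13.2% were higher and 19.6% lower in KO basophils, and 16.0% and 15.1% in control basophils.

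Granule genes other than the proteases followed. Srgn, the proteoglycan core that binds granule contents, stood at 3728 CPM in KO basophils and 3249 CPM in control basophils. All remaining barcodes had 1737 CPM in the KO and 2314 CPM in the control library. Srgn was not particular to basophils, since macrophage barcodes had 4033 CPM in the KO and 4920 CPM in the control library. Control barcodes of the Gpnmb and Inhba class had 9359 CPM. Cd63, a tetraspanin of granule membranes that reaches the surface on degranulation, stood at 2498 CPM in KO basophils and 2297 CPM in control basophils. Barcodes outside the population had 43.9 CPM in the KO and 49.5 CPM in the control library. Serpinb1a, an inhibitor of granule proteases, stood at 496 CPM in KO basophils and 431 CPM in control basophils. Gzmb, a granzyme, had 27 UMIs in 7 KO basophils and 6 UMIs in 3 control basophils, far below the other barcodes at 2094 CPM in the KO and 1415 CPM in the control library. Over granule proteases and proteoglycan, without Cpa3, which chose the cells, 4 of 7 measured genes passed 2-fold higher and 2 lower in KO basophils (median log2 ratio 1.10). In control basophils, 3 of 6 passed higher and 2 lower (1.75). Over genes shared by basophils and mast cells, 7 of 8 measured genes passed 2-fold higher and 0 lower in KO basophils (median log2 ratio 4.44). In control basophils, 7 of 8 passed higher and 0 lower (4.02). All measured genes together had 13.2% higher and 19.6% lower in KO basophils, and 16.0% and 15.1% in control basophils.

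Of 18 listed steroid genes, Cyp11a1 among them, 11 had a UMI in a basophil. Star, which carries cholesterol into mitochondria, Hsd3b1 and Cyp17a1, which act after Cyp11a1, and the cholesterol receptor Scarb1 had 0 UMIs in all 78 basophils. Tspo, a mitochondrial membrane protein, was at 863 CPM in KO basophils and 960.3 CPM in control basophils, near the other barcodes at 700.1 CPM and 749.6 CPM. Fdx1, the electron donor of Cyp11a1, had 7 UMIs in 6 KO basophils and 5 UMIs in 4 control basophils. On this list, without Cyp11a1, which chose the cells, 1 of 13 measured genes passed 2-fold higher and 3 lower in KO basophils (median log2 ratio -0.74). In control basophils, 3 of 13 passed higher and 2 lower (-0.52). These counts were near the shares of all measured genes, 13.2% higher and 19.6% lower in KO and 16.0% and 15.1% in control basophils.

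Transcription factors of the granulocyte and mast cell lineages were detected. Cebpa, a granulocyte factor, was at 428 CPM in KO basophils and 431 CPM in control basophils. The other barcodes had 3.39 CPM in the KO and 10.8 CPM in the control library. Cebpb stood at 1841 CPM in KO basophils and 2288 CPM in control basophils, Spi1 at 657 CPM in KO basophils and 673 CPM in control basophils and Runx1 at 344 CPM in KO basophils and 251 CPM in control basophils. Nfe2, a factor of megakaryocytes and red cells, had 33 UMIs in 20 KO basophils and 32 UMIs in 19 control basophils. Gata1, which acts beside Gata2, had 8 UMIs in 8 KO basophils and 10 UMIs in 9 control basophils and none elsewhere. Mitf, which mast cells need, and Irf8, needed by several myeloid lineages, had 0 in all 78. Over the list, without Gata2, which chose the cells, 7 of 19 measured genes passed 2-fold higher and 2 passed 2-fold lower in KO basophils, with a median log2 ratio of 0.17. In control basophils, 10 of 21 passed higher and 3 lower, with a median of 0.68. For all measured genes the shares were 13.2% higher and 19.6% lower in KO basophils, and 16.0% and 15.1% in control basophils.

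Immediate early genes were strongly represented. Zfp36, an RNA-binding protein that shortens the life of cytokine transcripts, reached 9533 CPM in KO basophils and 11487 CPM in control basophils. All remaining barcodes had 307 CPM in the KO and 439 CPM in the control library. Junb, Ier3, Jun and Ier2 reached 8173, 6844, 4064 and 3384 CPM in KO basophils and 8579, 5376, 3132 and 3644 CPM in control basophils. Egr1 had 0, 7 and 41 UMIs per KO basophil (lowest, median and highest) and 0, 12 and 32 UMIs per control basophil. Summed over the 20 listed genes, a basophil had 10, 138 and 324 UMIs in the KO and 7, 175 and 292 in the control library. Over the list, 15 of 19 measured genes passed 2-fold higher and 1 lower in KO basophils, with a median log2 ratio of 2.96. In control basophils, 14 of 19 passed higher and 2 lower, with a median of 3.34. Beside this, 13.2% of all measured genes were higher and 19.6% lower in KO basophils, and 16.0% and 15.1% in control basophils.

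Across the transcriptome, 767 of 9147 genes measured in both libraries (8.39%) were 2-fold or more higher in basophils in both, and 829 (9.06%) were lower in both. Since the cells were chosen by their own transcripts, these differences are a description. Ranked by the counting interval, the leading higher genes outside the rule were Csrp3, Hdc, Il4, Mcpt8, Cxcr2, Npl, Ccl3, Hgf, Rab44, Osm, Id1, Aqp9, Il6, Egr1, Ccl4, Ccl6, Csf1, Ier3, Cd63, Nfe2, Ifitm1, Adgrg3 and Cebpa. Csrp3, which encodes a LIM domain protein best known from striated muscle, had 60 UMIs in 24 KO basophils and 31 UMIs in 15 control basophils and 0 in the other barcodes of both libraries, which puts it at least 639-fold higher in KO and at least 487-fold higher in control basophils. These are the lower limits of the counting intervals of the ratios, and with each library's 0 set to 3 UMIs the ratios were 811 in KO and 636 in control basophils. Cxcr2, the chemokine receptor known from neutrophils, stood at 389.6 CPM in KO basophils and 314 CPM in control basophils. Barcodes outside the population had 1.13 CPM in the KO and 0.875 CPM in the control library. Npl, a lyase of sialic acid, and Aqp9, a channel for water and glycerol, stood at 306 and 229 CPM in KO basophils and 377 and 242 CPM in control basophils. Ifitm1, a membrane protein of the interferon-induced transmembrane family, had 3, 43 and 103 UMIs per KO basophil (lowest, median and highest) and 0, 33 and 98 UMIs per control basophil, and it stood at 14582 CPM in KO basophils and 11532 CPM in control basophils. The other barcodes had 139 CPM in the KO and 329 CPM in the control library.

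Of the remaining leading genes, Id1, an inhibitor of helix-loop-helix factors, stood at 1207 CPM in KO basophils and 862 CPM in control basophils, against 2.26 CPM in the other KO barcodes and 5.54 CPM in the other control barcodes, and Rab44, a large Rab GTPase, at 351 CPM in KO basophils and 341 CPM in control basophils. Adgrg3, an adhesion G protein-coupled receptor, stood at 183 CPM in KO basophils and 188 CPM in control basophils. Of the other listed basophil genes, Itga2b, the integrin alpha chain CD41, had 38 UMIs in 23 KO basophils and 16 UMIs in 11 control basophils, against 1 UMI in the other KO barcodes and 2 in the other control barcodes, Cd69, an activation marker, stood at 939.5 CPM in KO basophils and 745 CPM in control basophils, and Slc7a8, an amino acid transporter, had 29 UMIs in 19 KO basophils and 14 UMIs in 12 control basophils. Over the list of 22 basophil genes, 19 of 20 measured genes passed 2-fold higher and 1 passed 2-fold lower in KO basophils, with a median log2 ratio of 6.93, and 17 and 1 of 18 in control basophils, with a median of 5.90. Its lower member was Cd24a, a surface glycoprotein, with 0 UMIs in KO basophils and 1 UMI in control basophils. Of all measured genes, 13.2% were higher and 19.6% lower in KO basophils, and 16.0% and 15.1% in control basophils.

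**Figure D3:**
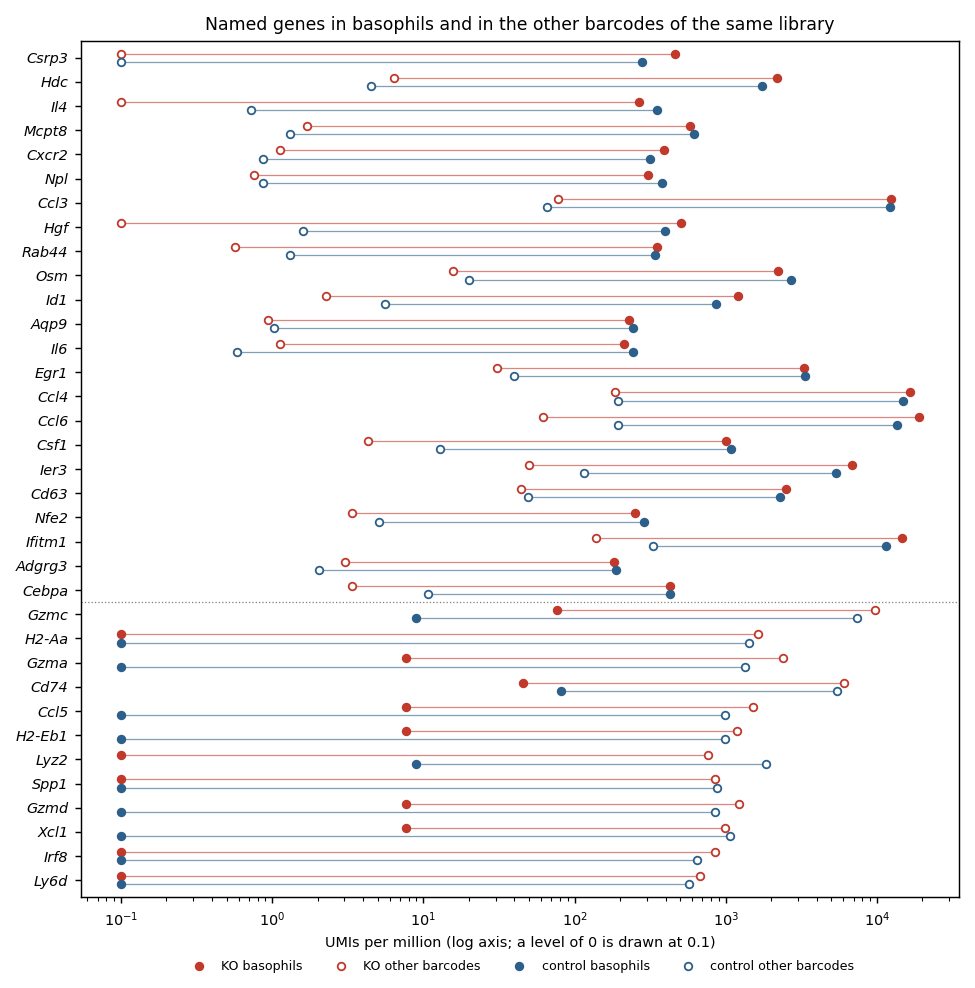
UMIs per 1000000 UMIs (horizontal log axis, a level of 0 drawn at 0.1) of 23 leading higher genes above the dotted line and the 12 leading lower genes below it, in basophils (filled) and in all other barcodes (open) of the KO library in red and the control library in blue. The filled points of each higher gene lie right of the open points, and those of the lower genes lie left of them.

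The leading lower genes were the granzymes Gzmc, Gzma and Gzmd, the chemokines Ccl5 and Xcl1, the antigen presentation genes H2-Aa, H2-Eb1 and Cd74, and Lyz2, Spp1, Irf8 and Ly6d, and none had more than 10 UMIs in KO or 9 UMIs in control basophils. H2-Aa had 0 UMIs in all 78 basophils, against 1642 CPM in the other KO and 1429.9 CPM in the other control barcodes. Cd74, the invariant chain, had 6 UMIs in 5 KO basophils and 9 UMIs in 3 control basophils, with 7 of the control UMIs in 1 barcode. Over MHC class II presentation, 0 of 13 measured genes passed 2-fold higher and 8 passed 2-fold lower in KO basophils, with a median log2 ratio of -5.77, and 0 and 8 of 13 in control basophils, with a median of -4.43. Class I genes were detected: H2-D1 stood at 3491 CPM in KO basophils and 3312 CPM in control basophils and B2m, the light chain, at 1359.6 CPM in KO basophils and 924 CPM in control basophils. All remaining barcodes had 3117 CPM in the KO and 2927 CPM in the control library. Over that list, 0 of 12 measured genes passed 2-fold higher and 6 lower in KO basophils (median log2 ratio -1.13). In control basophils, 0 of 12 passed higher and 7 lower (-1.43). The lower share over all measured genes was 19.6% in KO and 15.1% in control basophils, and the higher share 13.2% and 16.0%. Among genes with 10 or more expected UMIs, the lower share was 34.3% in KO and 36.7% in control basophils. Gzmc had 10 UMIs in 8 KO basophils and 1 UMI in 1 control basophil, with the other barcodes at 9718 CPM in the KO and 7429 CPM in the control library, and reads of Gzmc can be split with other granzymes of its cluster.

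Each list of markers of other lineages had 5 or fewer genes with a UMI in a basophil. Of eosinophil markers, Epx, Prg2 and Il5ra had no UMI, and the signal was Siglecf, an inhibitory receptor for sialic acid, with 16 UMIs in 13 KO basophils and 17 UMIs in 12 control basophils, and Ccr3, a chemokine receptor, with 3 UMIs in 3 KO basophils and 1 UMI in 1 control basophil. Of neutrophil markers, 7 of 9, among them S100a8, S100a9 and Csf3r, had no UMI, and the list's 51 UMIs in KO and 37 in control basophils were Cxcr2 and 2 Mmp9 UMIs in control basophils. The 10 B cell markers summed to 2 UMIs in KO and 3 in control basophils, the 10 T cell markers to 1 UMI in KO and 1 in control basophils, the 8 conventional dendritic markers to 0 UMIs in KO and 1 in control basophils and the 8 platelet and erythroid markers to 1 UMI in KO and 0 in control basophils. NK cell markers summed to 22 UMIs in KO and 8 in control basophils, mostly Nkg7, whose highest barcode had 9 UMIs in the KO and 4 in the control library. Macrophage and monocyte markers summed to 35 UMIs in KO and 36 in control basophils, mostly Ly6c2 and Apoe, with the C1q genes at 0. These UMIs lay in 12 KO and 13 control basophils, with 15 in the highest KO barcode and 9 in the highest control barcode. The plasma cell list gave 29 UMIs in KO and 19 in control basophils, all Xbp1, the plasmacytoid dendritic list 15 UMIs in KO and 9 in control basophils, nearly all Bst2, the list of type 2 innate lymphoid cells 40 UMIs in KO and 33 in control basophils, mostly Il7r and Il1rl1, and the tumour or stromal list 23 UMIs in KO and 12 in control basophils, nearly all Pecam1.

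Cell cycle genes were low in basophils and glycolytic genes were mixed. Of cell cycle genes, 0 of 16 measured genes passed 2-fold higher and 13 lower in KO basophils (median log2 ratio -1.86). In control basophils, 0 of 16 passed higher and 9 lower (-1.16). Mki67 had 1 UMI in KO basophils and 1 UMI in control basophils. Of glycolysis and hypoxia genes, 4 of 19 measured genes passed 2-fold higher and 7 lower in KO basophils (median log2 ratio -0.77). In control basophils, 3 of 20 passed higher and 11 lower (-1.43). Gpi1 and Ldha, both glycolytic enzymes, stood at 1001 and 749 CPM in KO basophils and 808 and 529 CPM in control basophils, while the other barcodes had 472 and 1249 CPM in the KO and 489 and 1338 CPM in the control library. Of survival and apoptosis genes, 2 of 14 measured genes passed 2-fold higher and 4 lower in KO basophils (median log2 ratio -0.51). In control basophils, 2 of 14 passed higher and 5 lower (-0.07). Over all genes measured, 13.2% were higher and 19.6% lower in KO basophils (median -0.52), and 16.0% and 15.1% in control basophils (median -0.41), so the share of survival genes higher was near that of all genes. Genes with 10 or more expected UMIs had lower shares of 34.3% in KO and 36.7% in control basophils. Pim1, a survival kinase, stood at 1031 CPM in KO basophils and 1158 CPM in control basophils, and Mcl1 at 817 CPM in KO basophils and 709 CPM in control basophils. Of adhesion and homing genes, 6 of 15 measured genes passed 2-fold higher and 2 lower in KO basophils (median log2 ratio 0.74). In control basophils, 7 of 14 passed higher and 2 lower (0.86). The tetraspanin Cd9 stood at 1658 CPM in KO basophils and 1535 CPM in control basophils, and Selplg, the ligand of P-selectin, at 1229.8 CPM in KO basophils and 1194 CPM in control basophils.

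Few genes passed 2-fold between KO and control basophils. Of 1117 genes with 30 or more UMIs over both groups of basophils, 20 (1.79%) were 2-fold or more higher in KO basophils and 22 (1.97%) 2-fold or more lower, with a median log2 ratio of 0.00. These ratios set 1 library of pooled tumours beside another. The leading genes each way were picked from the 1117 by their counting intervals. That their intervals leave out 1 follows in part from this choice and is no test. Of 19 measured basophil genes, 2 were higher, Prss34 and Itga2b, Itga2b with a ratio of 2.02 (1.10 to 3.88), and 0 lower, with a median of 0.17. The medians were -0.11 over 11 cytokines and chemokines and -0.11 over 13 immediate early genes, with 1 gene of each list 2-fold lower, Cxcl2 and Fosb. In the other barcodes the same genes had medians of -0.27, -0.37 and -0.36. Those barcodes mix cell classes whose numbers differ between the libraries.

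Ifitm3, a membrane protein that restricts viral entry, led the genes higher in KO basophils, with 83 UMIs in 22 KO basophils and 20 UMIs in 10 control basophils and a ratio of 3.53 (2.15 to 6.08), while the ratio in the other barcodes was 0.487. Single barcodes gave 31.3% of its UMIs in KO and 30.0% in control basophils, and the median was 0 UMIs in both. Rgs1, a regulator of G protein signalling, was found in 25 KO basophils (55.6%) and 20 control basophils (60.6%). The share of cells with it was thus not higher in KO. Rgs1 had 0, 2 and 28 UMIs per KO basophil (lowest, median and highest) and 0, 1 and 22 UMIs per control basophil. Its ratio was 1.78 (1.42 to 2.23). Cd52, a small surface glycoprotein, had 0, 3 and 9 UMIs per KO basophil (lowest, median and highest) and 0, 1 and 6 UMIs per control basophil and a ratio of 1.90 (1.39 to 2.62). Ccl6 had 8, 44 and 213 UMIs per KO basophil (lowest, median and highest) and 1, 41 and 159 UMIs per control basophil. On summed UMIs Ccl6 was higher in KO basophils, with a ratio of 1.41 (1.32 to 1.5), against 0.319 in the pooled other barcodes. That pool, also used for Ifitm3, mixes classes whose numbers differ, such as 5 KO and 44 control barcodes of the Gpnmb and Inhba class. Macrophage barcodes had Ccl6 at 1149 CPM in the KO and 576 CPM in the control library. Barcodes of no class had 241 and 645 CPM. Dusp5, a phosphatase of ERK, had a ratio of 1.84 (1.33 to 2.57), and Furin, a proprotein convertase, 2.98 (1.44 to 6.75). Padi4, which converts arginine to citrulline, had 35 UMIs in 21 KO basophils and 7 UMIs in 6 control basophils.

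The other leading genes higher in KO basophils were thinner. Ecm1, a secreted matrix protein, Hcar2, a receptor for niacin and ketone bodies, and Gzmb each had 29.6% to 31.0% of their KO UMIs in a single barcode. Ecm1 had 26 UMIs in 11 KO basophils and 4 UMIs in 3 control basophils, and Hcar2 had 29 UMIs in 11 KO basophils and 5 UMIs in 3 control basophils. Glipr2, a Golgi-associated protein, had 27 UMIs in 19 KO basophils and 7 UMIs in 7 control basophils, and Hnrnpu, a nuclear RNA-binding protein, had 51 UMIs in 28 KO basophils and 19 UMIs in 11 control basophils. For these the groups' per-cell values overlapped, with a median of 0 or 1 in each.

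Genes lower in KO basophils included the immediate early genes Fos and Fosb, but others of that list were not lower. Of 13 measured immediate early genes, 1 was 2-fold lower, and the median log2 ratio was -0.11. Ier3 had a ratio of 1.27 (1.15 to 1.41) and Egr1 of 0.982 (0.852 to 1.13). Fos had 0, 2 and 41 UMIs per KO basophil (lowest, median and highest) and 0, 7 and 64 UMIs per control basophil. Its ratio was 0.660 (0.571 to 0.763), and 0.435 in the pooled other barcodes. Fosb had a ratio of 0.470 (0.295 to 0.735) and Btg2, which slows division, 0.584 (0.436 to 0.778), with 0.625 and 0.912 in the other barcodes. Cxcl2, a neutrophil-attracting chemokine, had 22 UMIs in 2 KO basophils and 50 UMIs in 4 control basophils, so its ratio of 0.374 (0.216 to 0.630) rests on 6 barcodes. Arpc1a, a subunit of the actin-branching Arp2/3 complex, had 31 UMIs in 17 KO basophils and 69 UMIs in 20 control basophils and a ratio of 0.382 (0.242 to 0.592). B4galnt1, an enzyme of ganglioside synthesis, had 27 UMIs in 21 KO basophils and 49 UMIs in 23 control basophils. Iscu, a scaffold for iron-sulphur clusters, the nucleic acid-binding protein Cnbp and the splicing genes Clk1, U2af1 and Srsf2 had ratios between 0.327 and 0.532. The plot of KO against control levels shows that most genes lie near the diagonal.

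**Figure D4:**
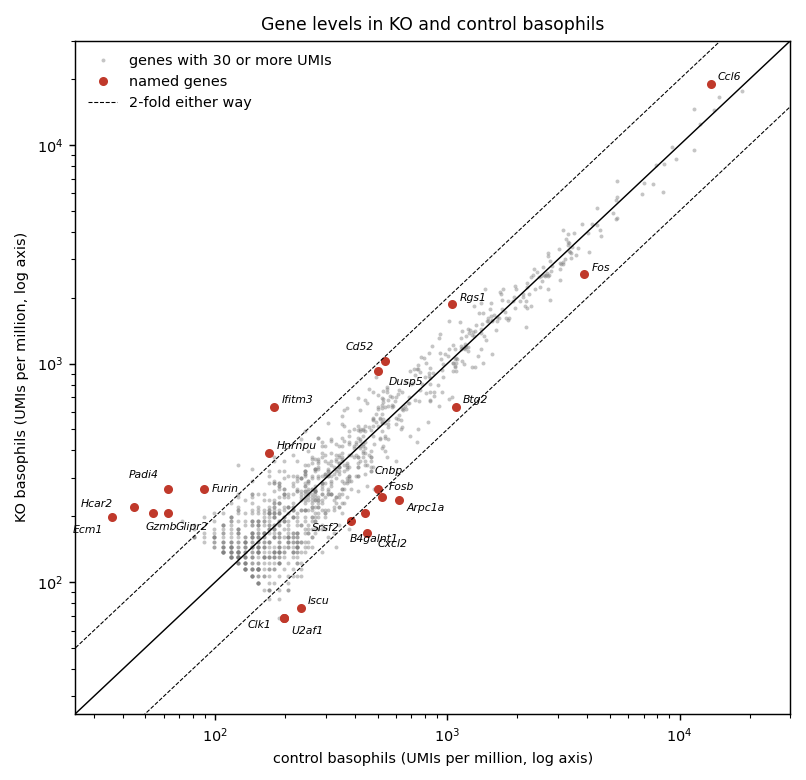
Level of each of 1117 genes in KO basophils (vertical) against control basophils (horizontal), both in UMIs per 1000000 UMIs on log axes, with 12 leading higher and 11 leading lower genes in red, a solid line at equal level and dashed lines at 2-fold. Ccl6 lies near the upper end at 19104 UMIs per 1000000 in KO and 13596 in control basophils, and Ifitm3 lies above the upper dashed line.

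Interferon response genes were low in basophils and uneven between cells. Over the list, 1 of 21 measured genes passed 2-fold higher and 13 lower in KO basophils, with a median log2 ratio of -1.17. In control basophils, 0 of 21 passed higher and 17 lower, with a median of -2.15. By comparison, 19.6% of all measured genes were lower and 13.2% higher in KO basophils, and 15.1% and 16.0% in control basophils. With 10 or more expected UMIs, 34.3% of genes were lower in KO and 36.7% in control basophils. A basophil had 0, 2 and 31 UMIs of the list in the KO and 0, 2 and 51 in the control library (lowest, median and highest). Irf1, a transcription factor, had 49 UMIs in 20 KO basophils and 20 UMIs in 13 control basophils and a ratio of 2.09 (1.22 to 3.70). Isg15, a ubiquitin-like protein, had 15 UMIs in 5 KO basophils and 16 UMIs in 1 control basophil. The KO over control median over 5 measured genes was 0.43 on summed UMIs and -0.15 when each barcode's CPM was averaged, so its direction changed with how barcodes were weighted.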

How the data were processed

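The 5' expression data are gene by barcode matrices that the authors deposited as whole-number UMI counts, one matrix per genotype; per the submitters' processing notes they used Cell Ranger 6.0.0 and GRCm38 (mm10). V(D)J contig lists were used only to ask which barcodes held a contig. No doublet removal by the authors is stated in the sources used here; Scrublet in Scanpy 1.11.5 marked 6 of 897 KO and 5 of 816 control barcodes, none of them a basophil, and no barcode was removed for it.

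UMIs were summed over basophils and over all other barcodes of each library (5307883 UMIs in the other KO and 6854111 in the other control barcodes) and divided by the totals, as CPM, with no division by gene length, since a UMI marks 1 transcript end. Ratios have 95% conditional binomial intervals, CPM exact Poisson intervals and shares Clopper-Pearson intervals. A gene was measured with 30 or more UMIs in the cells compared and called at 2-fold. A count of 0 was set to 3 counts for a bound. Ratio intervals were tested on counts simulated under the same counting model, without clumping of UMIs in single barcodes. That simulation cannot show how the intervals hold for genes with such clumping.

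Named genes were, among genes past 2-fold the same way in both libraries, the first 24 higher and 12 lower by the interval bound nearest to 1, the first 12 each way between genotypes, the basophil and mast cell genes with a UMI, and up to 5 genes of each other list with the most UMIs; other genes were singled out after their values were seen. One gene that the ranking named is not reported here. Immunoglobulin, T cell receptor, mitochondrial, ribosomal and predicted genes were not ranked. The members and gene lists were chosen with earlier results of these data known. Alternatives were the membership and gene filters, scaling, weighting of barcodes, the cells compared with, the barcode with the most UMIs left out, and thinning to 500 UMIs. Python 3.11.15, numpy 2.4.6, scipy 1.17.1, pandas 2.3.3 and matplotlib 3.10.9 were used. Promoter sequences are RefSeq's for GRCm38.p6.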

Additional observations from a re-analysis of the deposited data

How the results depend on the processing

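Of 211 values that answer a comparison, 190 kept their direction and stayed close under the alternatives, 20 moved and 1 reversed, and of 744 values of single genes 684 stayed, 60 moved and 0 reversed. Some alternatives could not move a value, which raises the counts that stayed. No barcode past the filters had exactly 2 rule genes, and no basophil was marked by Scrublet or held a V(D)J contig. Asking for 3 or more rule genes, or leaving out marked or contig-bearing basophils, therefore chose the same cells. Asking for no Cd79a UMI dropped only 1 control basophil. With 100 or more UMIs per gene, 665 genes were higher in KO basophils, 920 in control basophils and 464 in both. With an expected count of 10 or more, chosen after the data were seen, 175 genes were higher and 630 lower in KO basophils, 146 and 568 in control basophils, and 102 and 385 in both. Between genotypes, 229 genes were higher and 238 lower in KO basophils with 10 or more UMIs, and 1 and 1 with 100 or more. The fewer UMIs a gene had, the wider its counting interval. Thinned to 500 UMIs, Il4 was found in 6.67% of KO and 12.1% of control basophils and Mcpt8 in 17.8% of KO and 27.3% of control basophils. The median log2 ratio of the basophil list was 6.62 in KO and 5.56 in control basophils against barcodes other than B cells, and in control basophils 5.55 on mean CPM per barcode and 6.40 with 10 or more UMIs. The interferon response median between genotypes was -0.15 on mean CPM per barcode; the cause was not tested. Each genotype had 1 library, so depth, batch and sort cannot be told apart from genotype. No paired analysis was possible because each genotype had a single library.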
